A study of Homo sapiens with 3 samples.

Results

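CADM1, CADM2, PCDH7 and PCDH9 encode neuronal cell adhesion proteins: 2 CADM genes and 2 protocadherins that lie outside the protocadherin clusters. They were picked by their Ensembl gene IDs in lists of RNA regions bound by CSTF2tau. It was known then that CADM2 and PCDH9 reads were concentrated near the 5' end. The 4 genes are 4 of 13356 listed gene IDs, and their 793 peaks are 793 of 202310. CSTF2tau was recovered by sCLIP with an anti-CSTF2tau antibody from BE(2)-C cells of genotype WT. BE(2)-C is an established human neuroblastoma line, grown from a bone marrow metastasis. sCLIP fixes proteins to their RNA by ultraviolet irradiation of the living culture, trims the RNA with nuclease and sequences what the antibody brings down. The 3 biological replicates form a single untreated group, and no input or other antibody was analysed here, so bound RNA cannot be set apart from abundant RNA.

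CADM proteins carry immunoglobulin domains, bind each other across the gap between cells and help to organise synapses. CADM1 is also known as a tumour suppressor of epithelial cancers. Non-clustered protocadherins are members of the cadherin family; PCDH7 and PCDH9 each have an ectodomain of repeated cadherin domains and a long cytoplasmic tail. Like many neuronal adhesion genes, these genes are long and consist largely of introns. CSTF2tau is a paralog of CSTF2, the subunit of the cleavage stimulation factor that contacts GU-rich RNA beyond the site where a pre-mRNA is cut and polyadenylated.

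The 3 lists held 18346 to 105203 peaks with 108434 to 736059 reads, and replicate 2 was the smallest. Every listed peak had at least 3 reads and a deposited p-value below 0.05. A gene with no listed peak may therefore still have had reads, and their number is not known. The number of reads is the last part of each peak's name, an interpretation that no source states. Replicate 3 had 63.2% of its nuclear reads on the minus strand, against 48.8% and 50.6% in replicates 1 and 2. CADM1 and PCDH9 lie on the minus strand, CADM2 and PCDH7 on the plus strand. All intervals are exact Clopper-Pearson intervals at the 95% level and cover counting error only, because listed reads need not be independent molecules.

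Together the 4 genes held 3340, 368 and 1417 reads in replicates 1, 2 and 3, which is 0.454%, 0.339% and 0.365% of the listed reads. Of the 4, 3 had peaks in every replicate, a property of 33.0% of all gene IDs. Their listed spans, from the first to the last peak over all replicates, held no peak of another gene ID on either strand, and none of their peaks was listed under a second ID. The reads below are therefore not split with an overlapping or antisense gene ID.

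CADM1 (ENSG00000182985), whose peaks ran over chr11:115043522-115375034 (minus strand, hg19), had 1218 reads in replicate 1, 4 in replicate 2 and 378 in replicate 3. These were 0.165% (0.156 to 0.175%), 0.00369% (0.00101 to 0.00944%) and 0.0975% (0.0879 to 0.108%) of the listed reads. Replicate 2 stood far below the others, and the intervals of the 3 replicates did not overlap. The mean share was 0.0889% ± 0.0812 (SD, n = 3), and it was 0.131% without replicate 2.

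The 4 CADM1 reads of replicate 2 formed a single peak, chr11:115200392-115200454. From the mean share in the other replicates 143 reads were expected there, and from the lower of both shares 106, so 2.81% of the expected number was listed. Of 296 gene IDs with at least 50 reads expected in replicate 2, 23 (7.77%) had under 10% of the expected number. CADM1 was among them, while CADM2 had 143% and PCDH9 78.5% of their expected reads. The part of sequencing depth or of peak calling in this gap was not tested.

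CADM2 (ENSG00000175161) was the most strongly represented of the 4 genes by share. Its peaks ran over chr3:85008379-86103663 (plus strand), and it had 1316, 283 and 723 reads in replicates 1, 2 and 3. The shares were 0.179% (0.169 to 0.189%), 0.261% (0.231 to 0.293%) and 0.186% (0.173 to 0.201%). Replicate 2 was highest and did not overlap the others by counting error, whereas replicates 1 and 3 did overlap. The mean of 0.209% ± 0.0454 (SD, n = 3) placed CADM2 at rank 29 of 13356 gene IDs.

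PCDH7 (ENSG00000169851), which encodes a protocadherin that binds protein phosphatase 1, had hardly any listed RNA. No peak was listed in replicates 1 and 2, and replicate 3 had a single peak of 3 reads, the lowest number that any list holds. That peak lay at chr4:30942357-30942410 (plus strand), was 54 nt wide and had a deposited p-value of 0.0193. No position within the gene can be described from it.

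PCDH9 (ENSG00000184226) was measured in every replicate, with peaks over chr13:66890612-67804453 (minus strand) and 806, 81 and 313 reads. Its shares were 0.110% (0.102 to 0.117%), 0.0747% (0.0593 to 0.0928%) and 0.0807% (0.0720 to 0.0902%). Replicate 1 was highest, and replicates 2 and 3 overlapped. The mean was 0.0883% ± 0.0186 (SD, n = 3), which is rank 132, next to CADM1 at rank 129.

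**Figure D1:**
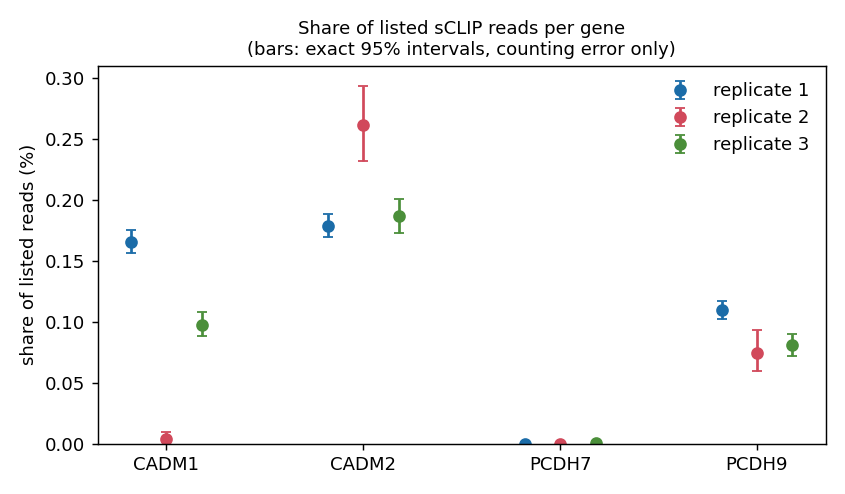
Share of listed reads (%) for each gene and replicate, with exact 95% intervals where reads were listed. CADM2 lies between 0.179% and 0.261% in every replicate, CADM1 drops to 0.00369% in replicate 2, and PCDH7 lies at or near 0.

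In the order of mean shares, CADM2 came first, CADM1 and PCDH9 followed with means that differed by far less than either SD, and PCDH7 came last. Since the spans differ in length, the genes were also compared by the share of listed reads per Mb of listed span. On this scale CADM1 had 0.268% per Mb ± 0.245, CADM2 0.191% ± 0.0415 and PCDH9 0.0966% ± 0.0204 (SD, n = 3). CADM2 exceeded PCDH9 in 3 of 3 replicates, by 0.0940% per Mb ± 0.0575, with p = 0.25 in an exact two-sided sign-flip test (adjusted p = 0.75 over 3 pairs); 0.25 is the smallest p that 3 replicates allow. CADM1 exceeded CADM2 in 2 of 3 replicates, by a mean of 0.0775% per Mb ± 0.284 (exact sign-flip test, p = 0.75, adjusted p = 0.75). It exceeded PCDH9 in 2 of 3, by 0.171% per Mb ± 0.227 (exact sign-flip test, p = 0.5, adjusted p = 0.75). Neither difference was larger than its spread between replicates. The minus-strand genes CADM1 and PCDH9 had lower shares in replicate 3, the library with excess minus-strand reads, than in replicate 1, while the share of CADM2 on the plus strand was close in both.

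The positions of the peaks are given as the distance from the 5' edge of each listed span, the 5'-most listed position in any replicate. This edge is not an annotated transcription start, and no hg19 annotation was used, so peaks are not assigned to exons, introns or untranslated regions. The concentration of CADM2 and PCDH9 reads near the 5' edge was known when the genes were picked. The values that follow describe its shape and carry no test.

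PCDH9 had the tightest concentration. In replicate 1, the first 30 kb held 742 of 806 reads, or 92.1% (89.97 to 93.8%). In replicate 2 they held 74 of 81, or 91.4% (83.0 to 96.5%), and in replicate 3 they held 147 of 313, or 47.0% (41.3 to 52.7%). Replicates 1 and 2 were alike and replicate 3 stood apart. As shares of all listed reads of each replicate, these 30 kb held 0.101%, 0.0682% and 0.0379%. Counted from the 5' edge, 50% of the reads were reached at 14.9, 19.8 and 51.1 kb and 90% at 27.8, 27.8 and 672 kb in replicates 1, 2 and 3.

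Both parts of the gene differed in replicate 3. Beyond 50 kb, replicate 1 had 49 reads in 11 peaks, replicate 2 had 7 reads in 2 peaks and replicate 3 had 161 reads in 42 peaks. These were 0.00666%, 0.00646% and 0.0415% of all listed reads, highest in replicate 3. Replicate 3 peaks had a median of 4 reads both there and within the first 50 kb. Of the 42 peaks beyond 50 kb, 1 overlapped a peak of another replicate. Of the 32 peaks of replicate 3 within the first 50 kb, 25 did so, a share of 78.1% (60.03 to 90.7%). In replicate 1 the numbers were 31 of 90 peaks within the first 50 kb and 1 of 11 beyond it.

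CADM2 reads were spread over more than 1 stretch. The first 10% of the span (110 kb) held 624 of 1316 reads in replicate 1, or 47.4% (44.7 to 50.2%). It held 120 of 283 in replicate 2, or 42.4% (36.6 to 48.4%), and 200 of 723 in replicate 3, or 27.7% (24.4 to 31.1%). As for PCDH9, replicate 3 was lowest. The first 5 kb alone differed more between replicates, with 98 reads (7.45%) in replicate 1, 57 (20.1%) in replicate 2 and 19 (2.63%) in replicate 3.

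A further stretch of CADM2 lay 300 to 400 kb from the 5' edge and was seen in each replicate. In replicate 1 it held 243 reads (18.5%, 16.4 to 20.7%). Replicate 2 had 106 reads there (37.5%, 31.8 to 43.4%), and replicate 3 had 160 (22.1%, 19.2 to 25.3%). The stretch before it, 150 to 300 kb, was sparser: it had 0.980, 0.200 and 0.940 reads per kb, against 2.43, 1.06 and 1.60 reads per kb between 300 and 400 kb. The ordering of these neighbouring stretches was thus the same in 3 of 3 replicates. They were marked out after the profile had been seen. The remaining 695 kb beyond 400 kb held 191, 19 and 139 reads, and no replicate had a peak between 750 and 900 kb.

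CADM1 had another shape, with a large part of its reads in the middle and at the 3' edge. Its description rests on replicates 1 and 3, because replicate 2 had a single peak. The middle stretch, 100 to 200 kb from the 5' edge, held 575 of 1218 reads in replicate 1 (47.2%, 44.4 to 50.1%) and 154 of 378 in replicate 3 (40.7%, 35.7 to 45.9%). The first 50 kb held 119 reads (9.77%) and 48 reads (12.7%). This is 2.38 and 0.960 reads per kb, below the 3.67 and 1.14 over the whole span. The first 5 kb alone had 9 and 1.80 reads per kb. The single CADM1 peak of replicate 2 also fell in the middle stretch, 175 kb from the 5' edge.

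The densest stretch of CADM1 was its 3' edge. The last 5 kb held 273 reads in 34 peaks in replicate 1, or 22.4% (20.1 to 24.9%), and 34 reads in 5 peaks in replicate 3, or 8.99% (6.31 to 12.3%). This is 54.6 and 6.80 reads per kb, against 3.67 and 1.14 reads per kb over the whole span. Both replicates were denser there than over the span, and replicate 1 more so. Over the last 30 kb, replicate 1 had 340 reads (27.9%) and replicate 3 had 75 (19.8%).

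**Figure D2:**
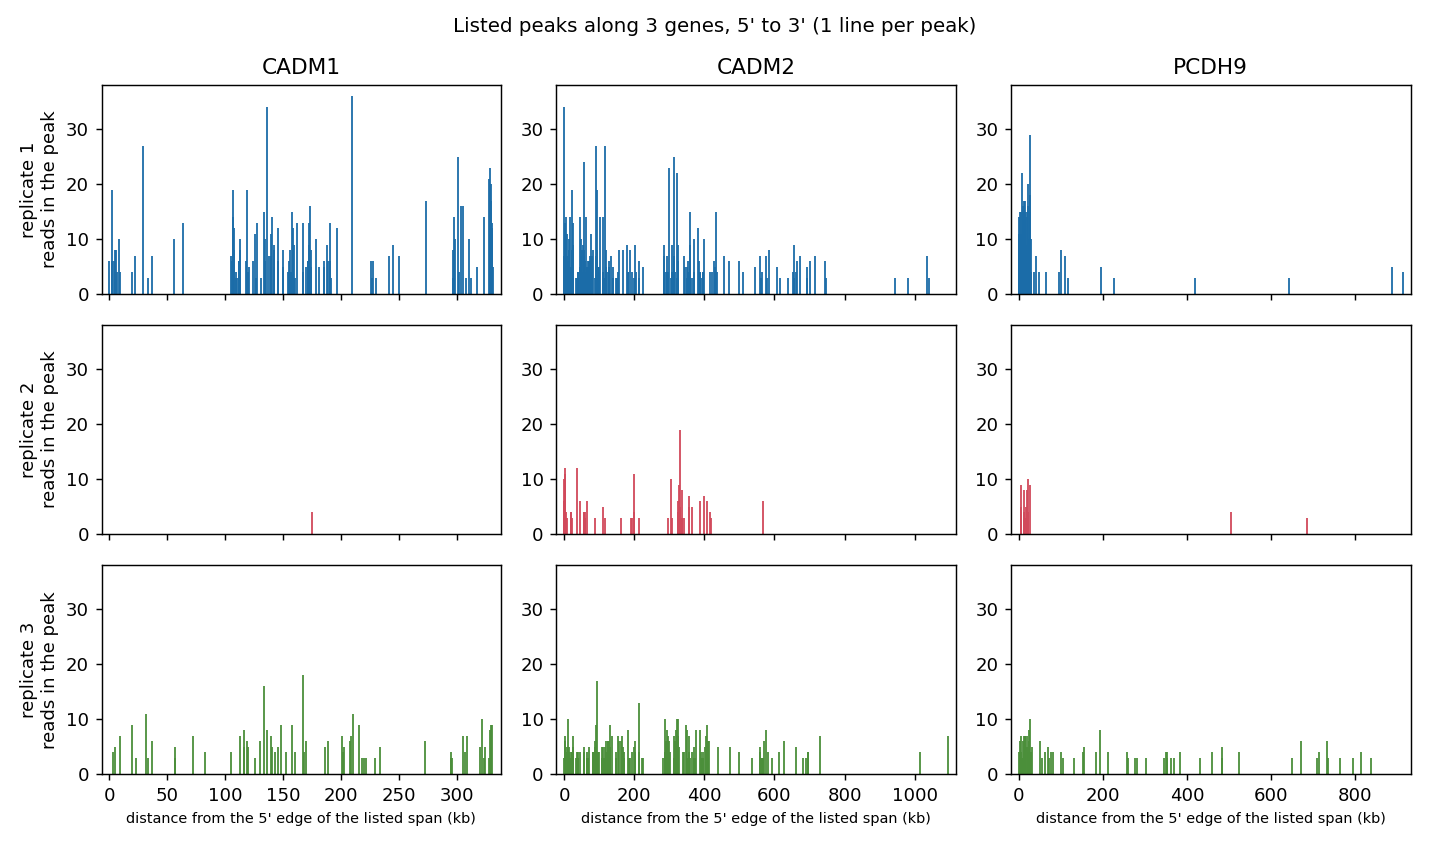
Reads in each listed peak (vertical axis) against distance from the 5' edge of the listed span in kb, for CADM1, CADM2 and PCDH9 (columns) in the 3 replicates (rows), with 1 line per peak. The first 30 kb hold 87 of 101, 13 of 15 and 31 of 74 PCDH9 peaks in replicates 1, 2 and 3, the first 150 kb and the stretch from 300 to 400 kb together hold most CADM2 peaks, and CADM1 has a single peak in replicate 2.

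**Figure D3:**
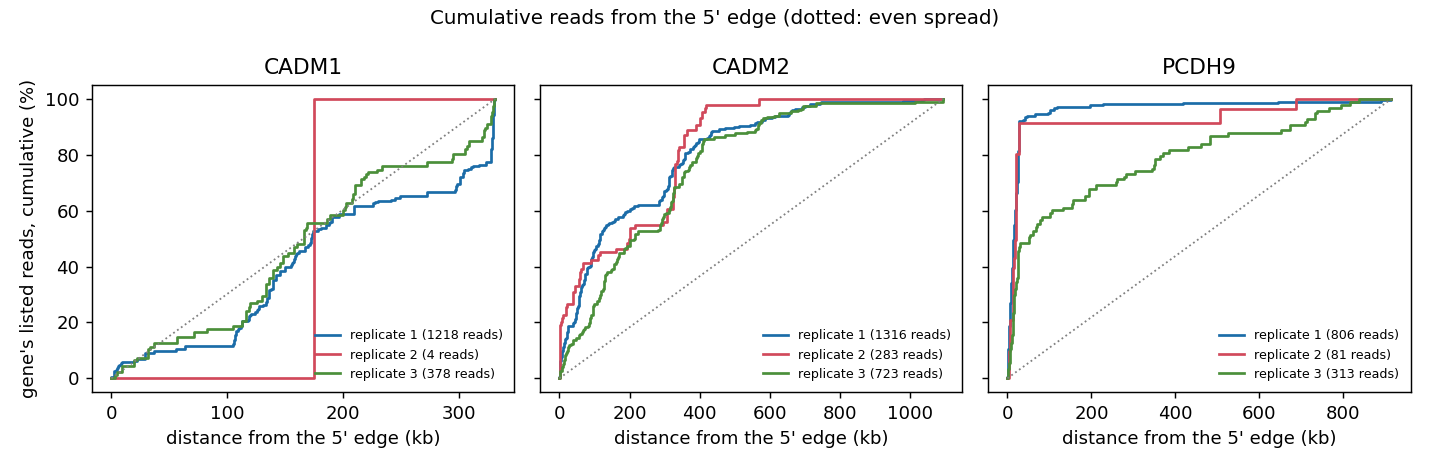
Cumulative share of each gene's listed reads (%) against distance from the 5' edge in kb, by replicate, with a dotted line for an even spread. PCDH9 reaches 90% at 27.8 kb in replicates 1 and 2 and at 672 kb in replicate 3, and CADM1 reaches 50% at 172 and 167 kb in replicates 1 and 3.

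Comparing the ends, the last 10% of the span held 379, 0 and 75 CADM1 reads against 112, 0 and 39 in the first 10%. The summed log2 ratio of 3' to 5' reads was 1.58 for CADM1, with 0.5 reads added to each end. For CADM2 the last 10% held 10, 0 and 11 reads against 624, 120 and 200, a summed log2 ratio of -5.46. For PCDH9 it held 9, 0 and 3 against 761, 74 and 181, a log2 ratio of -6.35. CADM2 and PCDH9 kept the same direction in 3 of 3 replicates, and CADM1 in the 2 replicates with reads at either end. An exact binomial test over all gene IDs, with Benjamini-Hochberg adjustment and the same direction required in each replicate with reads there, called 14.1% of 6380 gene IDs at the 5' end and 18.2% at the 3' end. CADM2 and PCDH9 were among the former and CADM1 among the latter. The genes were picked on this readout, so nothing is read from their calls. The test summed reads over replicates and took each read as independent, so it covers counting error only.

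To give the ends a scale, the 3 genes were placed among 535 gene IDs with a listed span of at least 200 kb, at least 100 reads and at least 5 loci. The median long gene ID had 16.1% of its summed reads in the first 10% of its span (quartiles 8.51 and 26.4%) and 8.33% in the last 10% (quartiles 4.17 and 15.4%). PCDH9 had 84.7% in the first 10%, with 1 long gene ID above it, and CADM2 had 40.7%, with 37 above it. CADM1 had 9.44% there, with 385 above it, and 28.4% in the last 10%, with 42 above it. In the last 10%, CADM2 had 0.904% and PCDH9 had 1.00%, both below the lower quartile. Over long gene IDs with at least 20 reads in a replicate, the median share in the first 10% was 16.8%, 11.7% and 14.3% in replicates 1, 2 and 3, a smaller step from replicate 1 to 3 than in CADM2 and PCDH9; this contrast was not tested.

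**Figure D4:**
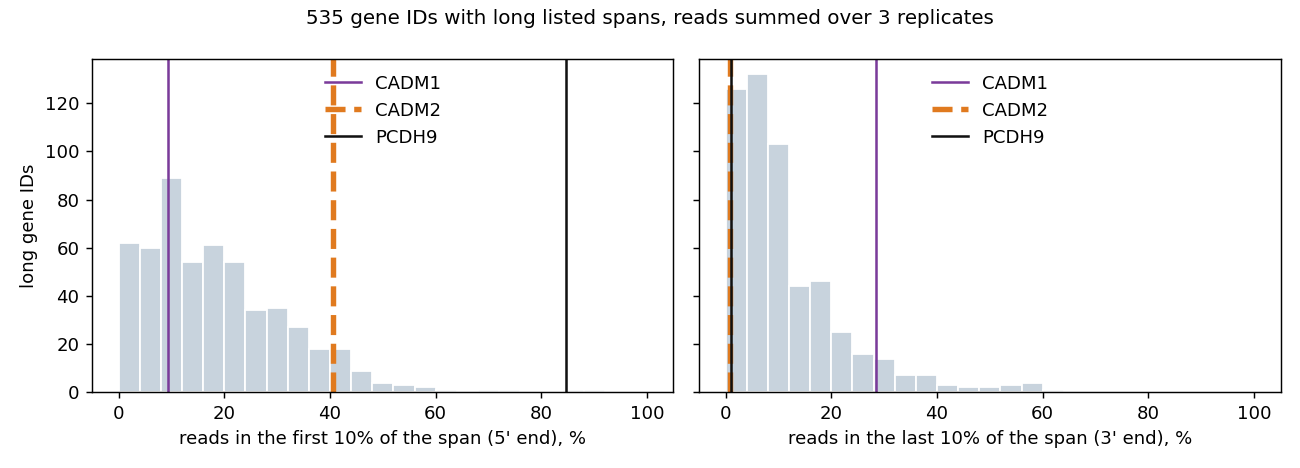
Number of long gene IDs (vertical axis) by the percentage of their summed reads in the first 10% (left) or the last 10% (right) of the listed span, with CADM1, CADM2 and PCDH9 as vertical lines. PCDH9 at 84.7% lies at the far right of the left panel, and CADM1 at 28.4% lies in the upper tail of the right panel.

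Listed peaks overlapped between replicates more often in PCDH9 than over all gene IDs. A peak recurred if it overlapped a peak of the same gene ID and strand in another replicate by at least 1 nt. In PCDH9, 32 of 101 peaks of replicate 1 recurred (31.7%, 22.8 to 41.7%). Replicate 2 had 10 of 15 (66.7%, 38.4 to 88.2%), and replicate 3 had 26 of 74 (35.1%, 24.4 to 47.1%). Over all gene IDs the shares were 15.2%, 35.0% and 16.8%. The higher PCDH9 shares came from the first 50 kb, the concentration known when the gene was picked. There 31 of 90, 10 of 13 and 25 of 32 peaks recurred, against 1 of 11, 0 of 2 and 1 of 42 beyond it. Intervals of recurrence take peaks as independent, and each overlap counts in both replicates. The 3 replicates are therefore not separate evidence, and no test is made. Peaks crowd together in PCDH9, and the shares were not matched on how densely peaks lie, which was not tested.

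CADM2 recurred at 43 of 199 peaks in replicate 1 (21.6%, 16.1 to 28.0%). The numbers were 16 of 51 in replicate 2 (31.4%, 19.1 to 45.9%), and 39 of 147 peaks of replicate 3 recurred (26.5%, 19.6 to 34.4%). These intervals lay above the share over all gene IDs in replicates 1 and 3 and included it in replicate 2. Over the long gene IDs the shares were 16.105%, 35.9% and 18.2% in replicates 1, 2 and 3. The CADM2 interval of replicate 1 started at 16.101% and so included the share over long gene IDs, as did that of replicate 2. Against long gene IDs, only the CADM2 interval of replicate 3 lay above. CADM1 recurred at 21 of 141 peaks in replicate 1 (14.9%, 9.46 to 21.9%) and 12 of 63 in replicate 3 (19.0%, 10.2 to 30.9%), both including the share over all gene IDs. Within CADM1, 13 of the 34 peaks in the last 5 kb recurred in replicate 1, against 8 of 107 elsewhere. Several of these 13 peaks lay in 1 locus. Counted as loci over all replicates, 4 of 26 (15.4%, 4.36 to 34.9%) recurred in the last 5 kb. Elsewhere 8 of 158 did (5.06%, 2.21 to 9.73%), and the intervals overlap. How densely peaks lie was not matched here either.

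Among peaks with at least 10 reads in replicate 1, 18 of 29 recurred in PCDH9 (62.1%), 7 of 28 in CADM2 and 9 of 45 in CADM1, against 28.9% over all gene IDs. In replicates 2 and 3, 4 of 7 and 4 of 6 such CADM2 peaks recurred, against 60.6% and 56.7% over all gene IDs, and CADM1 and PCDH9 had at most 5 such peaks each. The CADM2 values therefore lay on either side of the overall share, depending on the replicate. Merging peaks over replicates gave 154 PCDH9 loci, 32 of them in at least 2 replicates; 344 CADM2 loci, 45 of them; and 184 CADM1 loci, 12 of them. The percentages were 20.8%, 13.1% and 6.52%, and the median over the 535 long gene IDs was 4.26% (quartiles 1.68 and 8.06%). Pooled over loci, the share was 8.54% for all gene IDs and 9.15% for long gene IDs, so CADM1 lay above the median long gene ID but below the pooled shares.

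**Figure D5:**
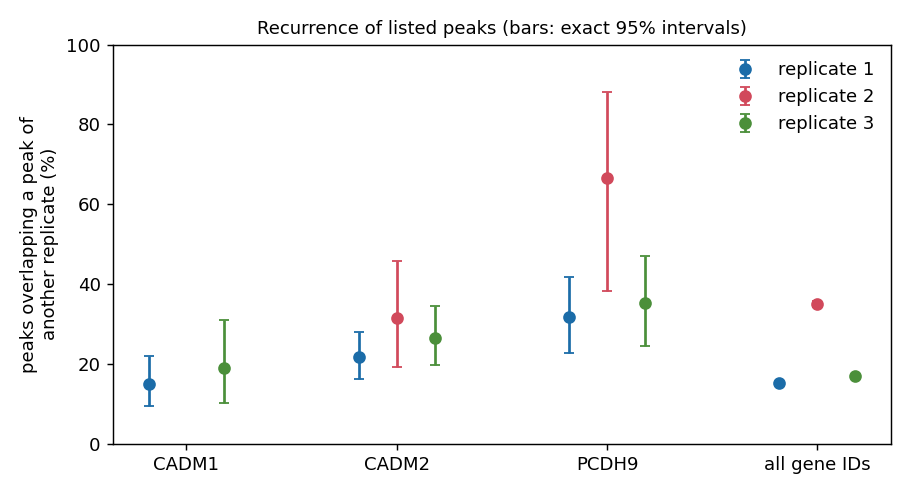
Percentage of listed peaks that overlapped a peak of another replicate, for CADM1, CADM2, PCDH9 and all gene IDs, by replicate, with exact 95% intervals (narrower than the points for all gene IDs). The PCDH9 values of 31.7%, 66.7% and 35.1% lie above the values over all gene IDs of the same replicates, and the single CADM1 peak of replicate 2 is not drawn.

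Loci present in all 3 replicates numbered 6 in CADM2, 3 in PCDH9 and 0 in CADM1. The strongest of CADM2 lay next to its 5' edge: chr3:85009265-85009545, 0.991 kb from the edge, had 34, 10 and 3 reads in replicates 1, 2 and 3. The next, chr3:85009675-85010072, had 20, 12 and 13 reads. The third by reads, chr3:85208352-85208477, lay 200.03 kb from the edge with 3, 11 and 5 reads. Of the other 3, chr3:85363859-85363959 with 4, 5 and 7 reads and chr3:85397254-85397415 with 4, 6 and 8 reads fell in the stretch between 300 and 400 kb. The last, chr3:85064900-85065042 with 8, 4 and 3 reads, lay 56.6 kb from the edge.

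All 3 PCDH9 loci fell between 5.86 and 13.7 kb from the 5' edge. The locus chr13:67791908-67792152 had 19, 3 and 7 reads, chr13:67798488-67798651 had 10, 9 and 7, and chr13:67790650-67790773 had 4, 8 and 3. As shares of each replicate's listed reads, the first of these was the most even, with 0.00258%, 0.00277% and 0.00181%. The second had 0.00136%, 0.00830% and 0.00181%, highest in replicate 2.

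In CADM1, which had no locus in all replicates, the strongest of the 12 loci shared by replicates 1 and 3 was chr11:115044439-115044569, 0.972 kb from the 3' edge, with 61 and 9 reads. The next by reads were chr11:115045619-115045721, with 22 and 9 reads, and chr11:115045945-115046093, with 26 and 5. At 31 reads in all, they were equalled by chr11:115046780-115046872, with 23 and 8, and by chr11:115241503-115241621 in the middle stretch, with 15 and 16. All but the last of these 5 lay within 5 kb of the 3' edge.

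The highest single peaks were not the recurring loci in every case. CADM1 had its highest peak in replicate 1 at chr11:115165229-115165364, with 36 reads (deposited p-value 3.1e-39), and no peak overlapped it in another replicate. The highest CADM2 peak of replicate 2, chr3:85338225-85338252, was 28 nt wide with 19 reads and was also found there only. The highest CADM2 peak of replicate 1 had 34 reads and belonged to the first locus named above. In PCDH9 the highest peaks had 29, 10 and 10 reads and lay 25.9, 21.4 and 26.1 kb from the 5' edge.

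The peaks of a gene ID carry running numbers that increase with the coordinate and have gaps. No source states what the unlisted numbers stand for. The highest CADM1 numbers in replicates 1 and 3 were 275 and 175. The single CADM1 peak of replicate 2 carried the number 13 but lay mid-span, so it cannot be set against these highest numbers. The CADM1 peaks with most reads in replicates 1 and 3, also mid-span at 210 and 167 kb from the 5' edge, carried 121 and 90. Up to the highest number, 48.7% and 64.0% of the numbers had no listed CADM1 peak in replicates 1 and 3, and the single peak of replicate 2 gives no comparable value. For CADM2 the percentages were 56.6%, 71.7% and 68.9% in replicates 1, 2 and 3, and for PCDH9 they were 42.6%, 64.3% and 42.6%. Over all gene IDs they were 54.4%, 60.2% and 52.6%, so CADM2 was above and PCDH9 below the overall value in replicates 1 and 3, and both were above it in replicate 2.

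Profiles over 10 equal parts of the listed span, averaged over the 3 replicates, were compared with 1932 gene IDs that had reads in every replicate, at least 100 reads and at least 20 loci. The distance is the percentage of reads that would have to change part to turn one profile into the other. Between CADM2 and PCDH9 it was 47.0%, and 580 gene IDs were closer to CADM2 and 146 closer to PCDH9 than they were to each other. CADM1 was 72.3% from CADM2 and 79.1% from PCDH9. The gene ID nearest to CADM2 was ENSG00000029534 at 10.5%, and the next 2 both lay at 10.9%. The nearest to PCDH9 was ENSG00000184083 at 13.2%, followed by others at 13.2% and 15.2%. For CADM1 the nearest was ENSG00000049618 at 12.2%, followed by 13.5% and 16.5%. The single CADM1 peak of replicate 2 weighs as much in this profile as the whole of another replicate. Without replicate 2 the nearest gene ID was another for each gene, at 10.6% for CADM1, 6.64% for CADM2 and 14.6% for PCDH9. The distance of CADM1 from CADM2 was then 59.4%, and its distance from PCDH9 was 71.1%. With all 3 replicates, the median distances over all gene IDs compared were 56.9% for CADM2, 74.0% for PCDH9 and 55.8% for CADM1. Without replicate 2 these medians were 49.4%, 67.0% and 42.9%.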

How the data were processed

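Each replicate has 1 list of peaks. Per the submitters' processing notes the build was hg19, and FastQC, SAMtools, STAR and bedtools were named; the peak caller is not given in the sources used here, nor is any annotation. The authors deposited a p-value per peak, below 0.05 in every list, and a name that joins gene ID, running number and a whole number. This last number was read as reads, because it falls as the p-value rises (Spearman's rho across peaks -0.988, -0.973 and -0.964). Totals cover listed peaks only.

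The members, lists and windows were chosen with earlier results of these data known. Peaks were placed by their deposited inner stretch of at most 4 nt, and overlapping peaks of a gene ID were merged into loci. Ends were tested per gene ID with at least 5 loci and 10 reads at both ends together, at an adjusted p below 0.05 (SciPy 1.17.1). The end test was run on simulated counts, whose outcome is not used here. The files pair no IDs with names and 0 IDs matched the reference table. The 4 names come from the rule that picked the genes; other CADM and protocadherin genes, neuroblastoma markers and the nearest profiles' names were not analysed here. PCDH7, whose span is 1 peak, entered no comparison per length, so 3 of the planned pairs were run. Named loci were the 3 with most reads among those in the most replicates. Ties and the remaining CADM2 loci in all replicates were added after their values were seen. No hg19 sequence was used here, so none is printed.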

Additional observations from a re-analysis of the deposited data

How the results depend on the processing

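Of 131 alternative values, 98 stayed within a limit (1 SD of the replicates, the exact interval of a locus share, or 1.5 times for counts), 32 moved and 1 changed sign. The limit of 1 SD is wide for CADM1, whose mean share ranged from 0.0506% to 0.131% when a replicate was left out. Leaving out peaks shared with another gene ID removed no peak of the 4 genes, because none of theirs is shared. Their end and locus values were unchanged by construction, and their shares moved only through the total. These values are among the 98 and carry no information on robustness. With the ends reduced to their outermost locus, the CADM1 log2 ratio of 3' to 5' reads was -0.24, those of CADM2 and PCDH9 were both 0, and the 5' locus held 0.164%, 0.177% and 0.165% of the CADM1, CADM2 and PCDH9 reads; a single locus holds few reads by construction. With the outer 20% of the span, the first part held 56.1% of CADM2 reads. The PCDH9 log2 ratio was -5.07 with the outer 20%, -5.36 with peaks counted in place of reads, -5.50 with the span cut at the 1st and 99th percentile of reads, and -6.46 to -4.24 when a replicate was left out, so its direction held in these alternatives. Calls of more 3' and more 5' reads numbered 1159 and 898 of 6380 gene IDs tested in the main setting. With peaks counted they numbered 219 and 225 of 1686. They numbered 737 and 590 of 4029 with the stricter p (no higher than the median of the list), and 145 and 59 of 3411 with the outermost locus. When a replicate was left out they numbered 618 to 1171 and 541 to 1049, with 4199 to 6148 tested. Because the number tested changed with the setting, the counts alone cannot be compared. With the stricter p, 11 of 135 CADM1 loci (8.15%), 19 of 182 CADM2 loci (10.4%) and 15 of 79 PCDH9 loci (19.0%) recurred. With an overlap of at least 50% of the shorter peak, 12 of 186 CADM1 loci (6.45%) recurred. In CADM2 the number was then 42 of 351 (12.0%), and in PCDH9 26 of 161 (16.1%). When a replicate was left out, recurring loci numbered 0 to 12 (0 to 6.56%) in CADM1, 8 to 36 (4.21 to 11.6%) in CADM2 and 4 to 24 (4.71 to 16.0%) in PCDH9, since fewer replicates remain to share a locus; without replicate 1 or without replicate 3, CADM1 had 0. The window of the first 100 kb, chosen after seeing the data, gave shares of 9.79%, 38.3% and 81.4% for CADM1, CADM2 and PCDH9. Unless a construction is named, the cause was not tested. No paired analysis was possible because the labels give a single group, so no groups could be paired; the differences between genes were paired within each library. Replicate 2, with 108434 listed reads, limits the precision for PCDH9. For CADM1 its 4 reads lay far below the 143 expected from the other replicates at that total, and the cause was not tested.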
